A study of Homo sapiens with 6 samples.

Results

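Cysteine and glutathione metabolism was followed in MDA-MB-231 cells through 10 genes that make cysteine, build glutathione from it, use and recycle glutathione, and break it down. The members were chosen by gene symbol, and a gene was read from its brightest probe set carrying that symbol alone. This gave 8 of the 10 members, among 18417 genes measured in all, with 1 probe set each. CBS was not analysed because its probe set is annotated with several symbols, and GGT1 was not analysed because its symbol stood alone on no annotated probe set.

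MDA-MB-231 is an established human triple-negative breast cancer line. In 3 cultures the cells received 10 µM YW3-56 for 8 h, and in 3 they received the vehicle DMSO, for which the labels state no separate time. YW3-56 is a compound described as inhibiting peptidylarginine deiminases, which turn arginine in proteins into citrulline. Each culture gave 1 Affymetrix array, and the labels call the replicates biological. Every level below is a deposited RMA expression value on the log2 scale, so a difference of 1 is a doubling. RMA equalises the arrays' probe intensities before summarising them, so these values cannot show a change of the whole transcriptome in 1 direction. The deposited array medians still ran from 7.55 to 7.74.

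Glutathione is a tripeptide of glutamate, cysteine and glycine and the main soluble thiol of the cell. Cysteine is usually its limiting building block, and it comes from imported cystine or from methionine through transsulfuration, in which CBS makes cystathionine and CTH splits it into cysteine. Glutamate-cysteine ligase, made of the catalytic subunit GCLC and the modifier GCLM, performs the rate-limiting step, and GSS adds glycine. GPX4 spends glutathione to reduce lipid peroxides, and GSR restores the oxidised form with NADPH. CHAC1 and CHAC2 cut glutathione inside the cell, and GGT1 does so at the cell surface. CHAC1, CTH and the cystine transporter gene SLC7A11 are known targets of ATF4, which drives the integrated stress response, and GCLC, GCLM and GSR are known targets of NRF2, which answers oxidants and electrophiles.

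Arrays of 1 group correlated at 0.990 to 0.997 over genes, and arrays of different groups at 0.980 to 0.985. DMSO replicate 1 lay farthest from its group mean, with a root mean square deviation of 0.16 over genes, against 0.09 to 0.14 on the other 5 arrays. Of the markers listed for the line, VIM, CD44, EGFR, CAV1 and LGALS1 had log2 means of 11.1 to 13.4 in YW3-56 and 11.3 to 13.5 in DMSO. Markers listed as absent in the line were dimmer, with log2 means of 5.90 to 9.17 in YW3-56 and 5.96 to 9.09 in DMSO. PGR, CDH1 and ESR1 lay at the 8.88, 14.1 and 22.4 percentiles of gene means and GATA3 and EPCAM at the 35.2 and 39.1. ERBB2 lay at the 65.5, above the median gene, so its transcript cannot be called absent here. The 5 measured blood and endothelial markers had log2 means of 5.20 to 7.01 in YW3-56 and 5.36 to 6.97 in DMSO. Of these markers limma called 3, with CAV1 lower (-0.43, adjusted p = 0.0085), GATA3 lower (-0.37, 0.0224) and HBB higher (0.37, 0.0197). CAV1 was called under all 16 alternatives, and GATA3 and HBB each lost their call under 5. The part of these markers in the results was not tested.

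Of the 8 measured members, 4 rose in YW3-56 and 1 fell, with limma at a false discovery rate of 0.05 over all genes (Benjamini-Hochberg adjusted p). CHAC1, CTH, GCLC and GCLM rose, CHAC2 fell, and GSR, GSS and GPX4 did not pass. Over all genes, 9.84% were called higher, 11.5% lower and 21.4% in either direction. The median log2 fold change of the 8 members was 0.66, beside -0.05 over all genes. Earlier results of these data were known when the members were chosen, so these values are a description. CHAC1 had the 9th largest log2 fold change of the 18417 genes, CTH the 17th, GCLC the 72nd and GCLM the 146th.

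**Figure D1:**
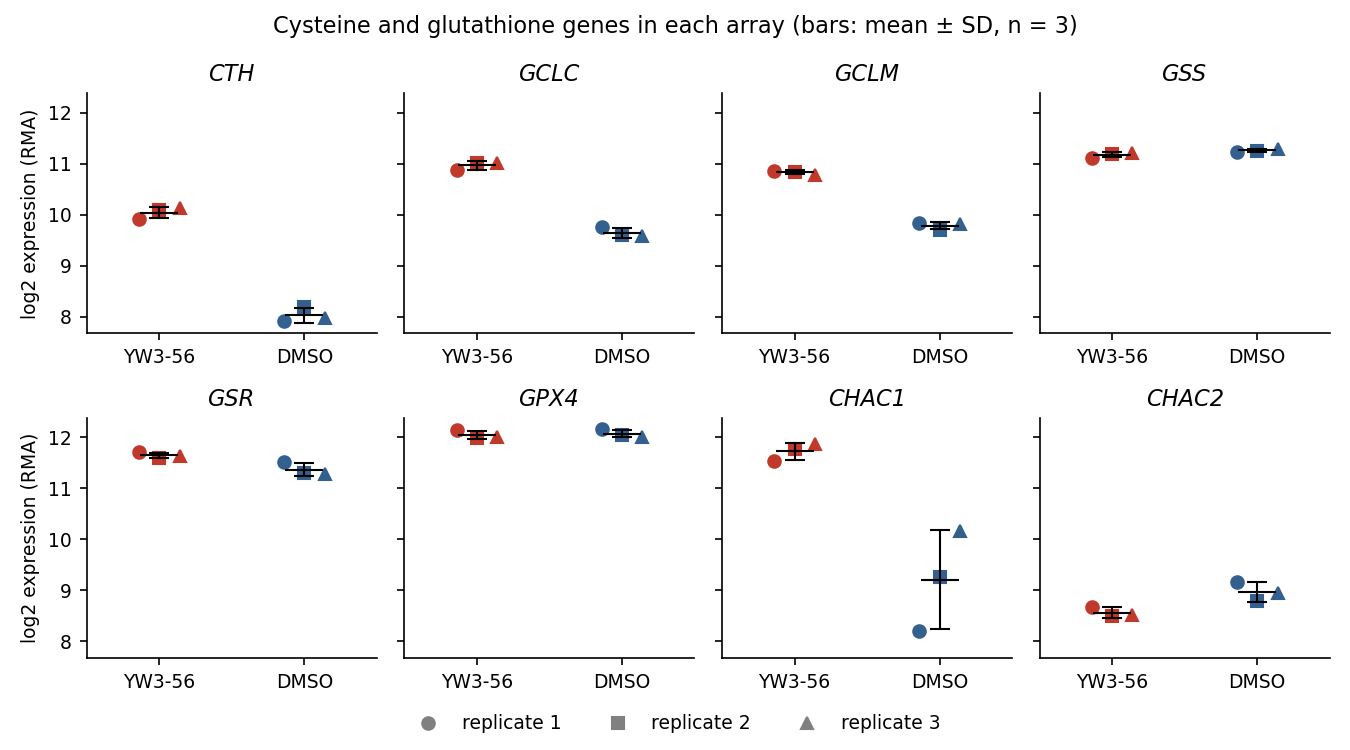
Log2 expression of the 8 measured members on each array, with YW3-56 (red) left of DMSO (blue). Symbols mark the replicate number, and black bars give the mean ± SD of 3 arrays. CTH, GCLC, GCLM, GSR and CHAC1 lie higher in YW3-56 without overlap, and GSS and CHAC2 lie lower without overlap. Over all genes, 36.9% had groups that did not overlap. The DMSO arrays of CHAC1 spread from 8.21 to 10.16.

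The promoter windows of the 5 members that passed the test are shown to let the members that moved be compared at the sequence level. Each window runs 5′ to 3′ along the gene from 250 bases before the RefSeq start to 50 bases after it (build GRCh38.p14). Capitals mark a match, on either strand, to TGATGNAA, the core of the element bound by CEBP-ATF dimers, or to TGACNNNGC, the core of the antioxidant response element bound by NRF2.
CTH (chr1:70411018-70411317, plus strand): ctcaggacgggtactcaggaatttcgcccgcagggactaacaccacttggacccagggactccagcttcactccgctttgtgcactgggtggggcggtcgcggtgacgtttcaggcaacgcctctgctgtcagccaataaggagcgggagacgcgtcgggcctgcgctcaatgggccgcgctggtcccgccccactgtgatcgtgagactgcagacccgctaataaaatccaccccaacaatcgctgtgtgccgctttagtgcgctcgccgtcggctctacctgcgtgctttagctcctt
GCLC (chr6:53545052-53545351, minus strand): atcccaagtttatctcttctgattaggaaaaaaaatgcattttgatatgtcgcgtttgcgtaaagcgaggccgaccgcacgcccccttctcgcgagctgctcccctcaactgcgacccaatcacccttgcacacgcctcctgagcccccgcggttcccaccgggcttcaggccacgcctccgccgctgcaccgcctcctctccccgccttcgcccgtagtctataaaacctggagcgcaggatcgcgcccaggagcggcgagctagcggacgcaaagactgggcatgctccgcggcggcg
GCLM (chr1:93909381-93909680, minus strand): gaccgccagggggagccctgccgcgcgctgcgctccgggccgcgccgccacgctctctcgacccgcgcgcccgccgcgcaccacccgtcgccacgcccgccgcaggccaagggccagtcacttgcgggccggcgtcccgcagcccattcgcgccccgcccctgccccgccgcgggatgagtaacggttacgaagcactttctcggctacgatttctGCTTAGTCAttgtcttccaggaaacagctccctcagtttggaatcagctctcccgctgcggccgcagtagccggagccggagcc
CHAC1 (chr15:40953221-40953520, plus strand): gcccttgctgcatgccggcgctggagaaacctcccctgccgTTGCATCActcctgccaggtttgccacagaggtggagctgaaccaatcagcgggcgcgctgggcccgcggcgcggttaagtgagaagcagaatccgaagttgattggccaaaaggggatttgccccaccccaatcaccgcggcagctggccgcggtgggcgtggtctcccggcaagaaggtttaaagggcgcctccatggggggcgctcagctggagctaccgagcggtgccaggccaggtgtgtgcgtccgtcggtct
CHAC2 (chr2:53767533-53767832, plus strand): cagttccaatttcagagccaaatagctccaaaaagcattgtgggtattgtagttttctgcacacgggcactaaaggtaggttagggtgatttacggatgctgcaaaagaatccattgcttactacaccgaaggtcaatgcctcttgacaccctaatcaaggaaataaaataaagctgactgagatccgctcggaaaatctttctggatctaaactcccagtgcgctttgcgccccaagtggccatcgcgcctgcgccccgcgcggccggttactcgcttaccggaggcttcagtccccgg

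Of the 8 listed members with a window in the RefSeq table, 1 held TGATGNAA and 2 held TGACNNNGC. The CHAC1 window held TTGCATCA, a minus-strand match to TGATGNAA whose first printed base lies 209 bases before the start. Among 35116 windows of the same length, 3.62% held that core. The GCLM window held GCTTAGTCA, a minus-strand match to TGACNNNGC that begins 34 bases before the start, and 13.35% of windows held that core. The other match was in the CBS window. No 2 matches overlapped. The CTH, GCLC and CHAC2 windows held neither core, which says only that these letters are not in these 300 bases. Windows of GSS and GSR were not used here.

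The cysteine supply was represented by CTH, cystathionine gamma-lyase. CTH had log2 levels of 9.91, 10.09 and 10.13 in YW3-56, against 7.92, 8.19 and 7.98 in DMSO. The 3 treated arrays lay close together and the lowest of them stood 1.72 above the highest DMSO array. The change was 2.01 ± 0.10 (limma SE, n = 3 arrays per group), or 4.04-fold, with a limma adjusted p of 3.04e-05. Every SE and 95% interval given here is from limma, which draws a gene's variance toward a value shared over all genes. Its 95% interval ran from 1.79 to 2.24. The spread of CTH was alike in both groups, with an SD of 0.11 in YW3-56 and 0.14 in DMSO.

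Both subunits of glutamate-cysteine ligase rose. GCLC, the catalytic subunit, had 10.87, 11.01 and 11.01 in YW3-56, against 9.75, 9.60 and 9.58 in DMSO. The change was 1.32 ± 0.08 on the log2 scale (SE, n = 3 per group, limma adjusted p = 9.17e-05), or 2.50-fold. GCLM, the modifier subunit that raises the activity of GCLC, had 10.86, 10.84 and 10.79 in YW3-56, against 9.84, 9.71 and 9.81 in DMSO. It was 2.06-fold higher (1.05 ± 0.07, limma adjusted p = 1.29e-04). Neither gene's groups overlapped, and the gaps between the lowest treated and the highest DMSO array were 1.12 for GCLC and 0.95 for GCLM.

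The change of GCLC was compared with that of GCLM array by array. The log2 value of GCLC minus that of GCLM was 0.01, 0.17 and 0.23 in YW3-56, against -0.08, -0.10 and -0.23 in DMSO. The groups did not overlap and differed by 0.28. An exact permutation test over the 20 regroupings of the 6 arrays, two-sided, gave p = 0.1, the smallest it allows with 3 against 3, and 0.1 after adjustment over the 2 pairs of members compared. A test of this size cannot reach 0.05.

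GSS, which completes glutathione, did not pass the test. It had 11.11, 11.19 and 11.20 in YW3-56, against 11.24, 11.25 and 11.30 in DMSO. The treated arrays all lay below the DMSO arrays, by a gap of only 0.03, and 36.9% of all genes had groups that did not overlap. The log2 fold change was -0.09 ± 0.07 (n = 3 per group, limma adjusted p = 0.459), and its 95% interval ran from -0.25 to 0.07.

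GSR, the reductase that regenerates glutathione, stood at the edge of the threshold. It had 11.71, 11.60 and 11.64 in YW3-56, against 11.52, 11.30 and 11.29 in DMSO. All treated arrays lay above all DMSO arrays, with DMSO replicate 1 nearest to them. The log2 fold change of 0.28 ± 0.09 had a limma adjusted p of 0.0568 (n = 3 per group, 95% interval 0.08 to 0.48). With replicate number as a block the adjusted p was 0.0284, and without DMSO replicate 1 the change was 0.35 with an adjusted p of 0.0111, so the call of GSR turned on these choices.

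GPX4, the selenoprotein that guards membranes against lipid peroxides, had the log2 fold change nearest to 0 of the 8 members. Its levels were 12.14, 11.99 and 12.01 in YW3-56, against 12.16, 12.06 and 12.01 in DMSO, and the groups overlapped. Its log2 fold change was -0.03 ± 0.08 (n = 3 per group, limma adjusted p = 0.847). The 95% interval, from -0.21 to 0.15, leaves room for a change of that size in either direction.

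**Figure D2:**
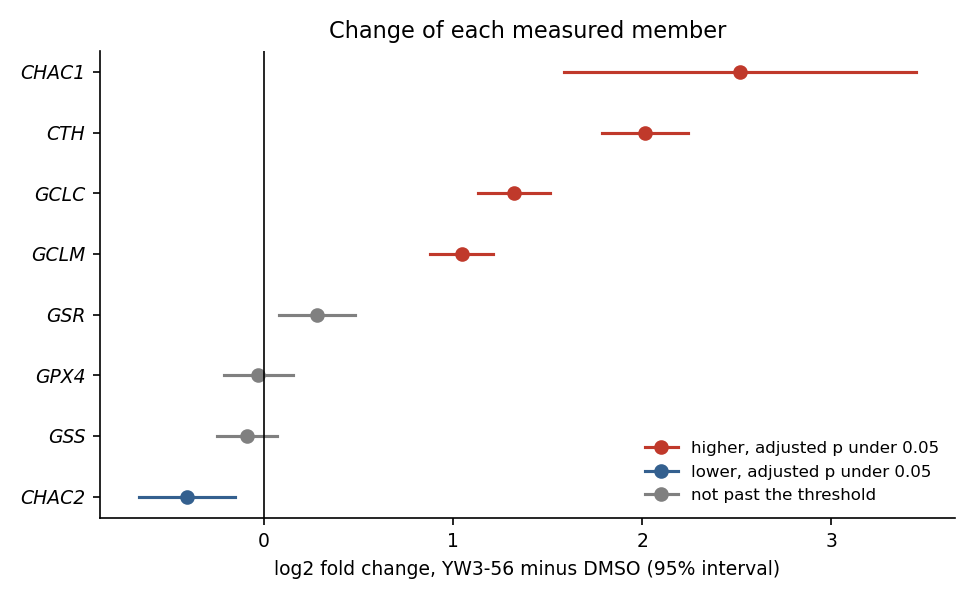
Log2 fold change of each measured member, YW3-56 minus DMSO, as points with 95% intervals from limma (n = 3 arrays per group). CHAC1 has the widest interval, 1.58 to 3.45, and the intervals of GSS and GPX4 include 0.

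The glutathione-cleaving enzymes CHAC1 and CHAC2 went in opposite directions. CHAC1, the stress-inducible enzyme, had 11.55, 11.77 and 11.87 in YW3-56, against 8.21, 9.26 and 10.16 in DMSO. The treated arrays spanned 0.32 and the DMSO arrays 1.95, and the lowest treated array still stood 1.38 above the highest DMSO array. The log2 fold change was 2.52 ± 0.41 (limma SE, n = 3 per group), or 5.72-fold, with a limma adjusted p of 0.0034 and a 95% interval from 1.58 to 3.45. The SD of CHAC1 was 0.98 in DMSO and 0.16 in YW3-56, and its SE and interval rest on limma's shared variance. CHAC2, the paralog described as constitutive and slower, had 8.68, 8.49 and 8.51 in YW3-56, against 9.17, 8.79 and 8.95 in DMSO. It was 1.33-fold lower (-0.41 ± 0.11, limma adjusted p = 0.0322), with a gap of 0.11 between the groups.

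The call of CHAC2 was lost without DMSO replicate 3 (limma adjusted p = 0.0637), without YW3-56 replicate 2 (0.112) and without YW3-56 replicate 3 (0.121). It was also lost after centring of each array (0.0776) and in a per-gene model without shared variance (0.127). Within arrays, the log2 value of CHAC1 minus that of CHAC2 was 2.86, 3.28 and 3.36 in YW3-56, against -0.96, 0.47 and 1.22 in DMSO. The difference between groups was 2.92, at the smallest p the exact permutation test allows (p = 0.1, two-sided, 3 arrays per group). CHAC1 lay higher and CHAC2 lower without overlap, so the test could return no other p and adds nothing to their changes.

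The size of the CHAC1 change depended on the vehicle array it was set against. Without DMSO replicate 1 it was 2.02, or 4.04-fold, and without DMSO replicate 3 it was 2.99, or 7.95-fold. CHAC1 passed the limma test without any one of the 6 arrays, with adjusted p from 3.82e-04 to 0.0203. It missed the threshold in the per-gene model without shared variance, where the adjusted p was 0.0643. Over the DMSO arrays CHAC1 had the largest range of all 18417 genes, beside a median range of 0.23. After centring of each array on its median its range was 1.76, the 2nd largest. In YW3-56 its range of 0.32 ranked 2594th.

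ASNS, asparagine synthetase and a known ATF4 target, had the 2nd largest range over the DMSO arrays, 1.78. It had 11.46, 11.89 and 12.04 in YW3-56, against 9.09, 10.71 and 10.87 in DMSO, so DMSO replicate 1 was its lowest array, as for CHAC1. Its change of 1.57 (limma adjusted p = 0.0307) was not called without YW3-56 replicate 1, 2 or 3 (0.0538, 0.0904 and 0.113), with a trended and robust prior (0.0618) or in the per-gene model without shared variance (0.184). Without DMSO replicate 1 it was 1.00. Of the 19 genes of a list of ATF4 targets, 16 were lowest among vehicle arrays in DMSO replicate 1 and 17 were highest in DMSO replicate 3, beside 45.7% and 46.2% of all genes. Of 9 measured genes of a list of NRF2 targets, 0 were lowest in DMSO replicate 1 and 7 were highest there, beside 35.3% of all genes. GCLC, GCLM, GSR, GPX4 and CHAC2 were also highest in DMSO replicate 1, while CTH and GSS were lowest there with ranges of only 0.27 and 0.06. SLC7A11 belongs to both lists, which were chosen with earlier results of these data known. CHAC1 and ASNS were also lowest in YW3-56 replicate 1 and highest in YW3-56 replicate 3, over smaller ranges of 0.32 and 0.58. For both lists, the order over the YW3-56 arrays was not counted. What set DMSO replicate 1 apart was not tested.

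**Figure D3:**
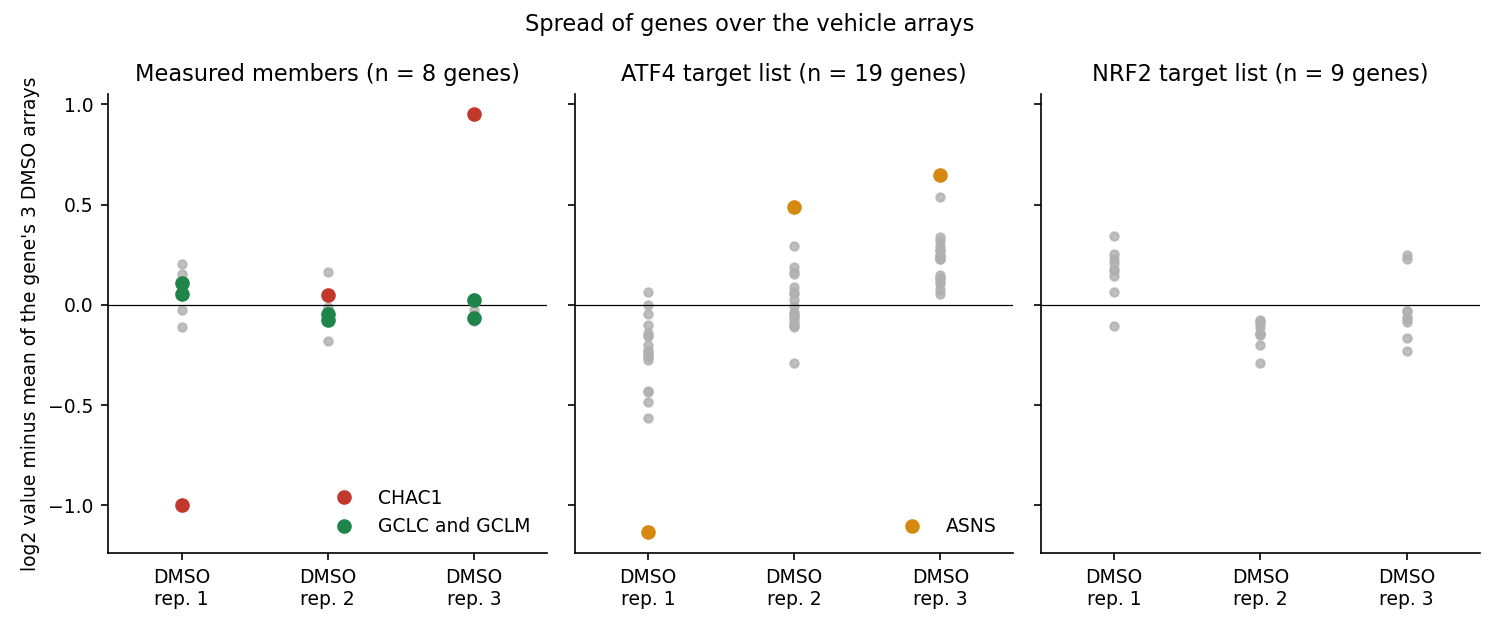
Values of each gene on the 3 DMSO arrays, as the log2 value minus the mean of that gene's 3 DMSO arrays, for the 8 measured members, 19 ATF4 targets and 9 NRF2 targets. CHAC1 (red) and ASNS (orange) lie lowest in DMSO replicate 1 and highest in DMSO replicate 3, and GCLC and GCLM (green) stay close to 0.

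In YW3-56, 14 of the 19 ATF4 targets rose and the other 5 did not pass, with a median of 0.83, beside 9.84% of all genes called higher. The count was 12 to 16 as each array was left out, 16 with replicate number as a block and 9 in the per-gene model without shared variance. The largest were DDIT3, which encodes the transcription factor CHOP (3.36), SESN2, an inhibitor of mTORC1 (2.61), and DDIT4, another mTORC1 inhibitor (2.17). Of the 9 NRF2 targets, 7 rose and 2 did not pass, with a median of 0.72. They were led by HMOX1, the haem-degrading enzyme (3.23), SRXN1, sulfiredoxin (1.29), and OSGIN1 (1.20). The changes of the ATF4 list ran from -0.10 to 3.36 and those of the NRF2 list from 0.09 to 3.23, so the changes of CHAC1, CTH, GCLC and GCLM lay within both ranges. Both lists were chosen with earlier results of these data known, so these counts and ranges are descriptions only.

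The genes whose log2 values most resembled CHAC1 over the 6 arrays were UAP1L1, HSD17B4, RHBDD1, LONRF1 and PIK3C2B. Their Pearson correlations with CHAC1 ran from 0.996 to 0.998, given as a description since the arrays share the group difference. Their changes were far smaller than that of CHAC1, from 0.26 for HSD17B4 to 0.56 for LONRF1. In LONRF1, the DMSO values were 7.47, 7.77 and 7.88, lowest in DMSO replicate 1 and highest in DMSO replicate 3 as in CHAC1. These genes were picked by their correlation with CHAC1 over these same arrays, so a shared order is part of that choice.

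Outside the 10 members, 88 of 92 listed genes of the wider pathway were measured, and 14 rose and 9 fell. Together 26.1% were called, near the 21.4% of all genes, and the median log2 fold change was -0.05 in both. The count of falls was 2 without DMSO replicate 2, 5 without DMSO replicate 3, then 3, 4 and 1 with YW3-56 replicate 1, 2 or 3 left out. Without YW3-56 replicate 3 there were 9 rises. Centring of each array left 5 falls. A per-gene model without shared variance ended the calls of SLC1A1, TST, SUOX, GPX8, SLC25A40 and EEFSEC, with adjusted p from 0.0564 to 0.168. Other genes, CNDP2 among them, gained a call in it, and it counted 13 rises and 9 falls.

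Among 7 genes of cystine and cysteine transport, 3 rose and 1 fell, so 57.1% were called, beside 21.4% of all genes. Both parts of the cystine importer rose. SLC7A11, its transport subunit, had 12.78, 12.84 and 12.94 in YW3-56, against 12.00, 11.64 and 12.16 in DMSO, a change of 0.92 ± 0.13 (n = 3 per group, limma adjusted p = 0.0020). SLC3A2, its heavy chain, changed by 0.77 ± 0.07 (limma adjusted p = 4.16e-04). CTNS, which exports cystine from lysosomes, changed by 0.70 ± 0.12 (limma adjusted p = 0.0040). SLC1A1, a transporter of glutamate and cysteine named after its value was seen, was the gene of the list that fell (-0.40, limma adjusted p = 0.0484). It was not called with replicate number as a block (0.0568), with array weights (0.0616), in the per-gene model without shared variance (0.168), or when any array but YW3-56 replicate 2 was left out (0.0542 to 0.140).

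In the methionine cycle, which feeds transsulfuration, 2 of 10 measured genes fell and the other 8 did not pass. That is 20% called, near the 21.4% of all genes. MAT2A, which makes S-adenosylmethionine, had 12.50, 12.43 and 12.45 in YW3-56, against 13.18, 13.16 and 13.03 in DMSO, a change of -0.66 ± 0.07 (n = 3 per group, limma adjusted p = 7.45e-04). MTR, methionine synthase, changed by -0.27, a call lost without DMSO replicate 2 (0.0944), without YW3-56 replicates 1, 2 and 3 (0.0744, 0.0983 and 0.0718) and after centring of each array (0.127). MTRR, which reactivates MTR, had -0.25 at an adjusted p of 0.0537 and of 0.0295 with replicate number as a block.

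Genes of cysteine breakdown and sulfide oxidation went both ways, with 3 of 10 higher and 3 lower, beside 9.84% and 11.5% of all genes. As each array was left out, 1 to 3 were called higher and 0 to 2 lower. Without YW3-56 replicate 1 or 3 the counts were 1 higher and 0 lower, and after centring of each array 3 and 1. SQOR, which oxidises sulfide in mitochondria, rose by 0.47, and SUOX, sulfite oxidase, by 0.37. MPST, which releases sulfide from a product of cysteine, fell by 0.36 on the log2 scale. SUOX was lost without DMSO replicate 2 and without any YW3-56 array (adjusted p from 0.0654 to 0.0740), and MPST without YW3-56 replicate 1 (0.0521) or 3 (0.0630). GOT1 (0.32), GOT2 (-0.24) and TST (-0.29), named after their values were seen, were the other genes called. GOT2 was lost whichever array was left out (limma adjusted p from 0.0590 to 0.168). TST was lost when any array but DMSO replicate 1 was left out (0.117 to 0.164). GOT1 was lost without DMSO replicate 2 (0.0831) and without YW3-56 replicate 1 (0.0619) or 3 (0.0849).

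No further gene of glutathione breakdown passed, with 0 of 9 measured genes called by limma and 1, CNDP2, at an unadjusted p under 0.05. Limma called 21.4% of all genes. Their log2 fold changes ran from -0.21 for CNDP2, a dipeptidase of cysteinylglycine (limma adjusted p = 0.0660), to 0.10. CNDP2 passed under 5 of the 16 alternatives, which were both filters on dim genes (0.0399 and 0.0183), a trended and robust prior (0.0312), array weights (0.0122) and the per-gene model without shared variance (0.0369). GGCT, which handles the gamma-glutamyl amino acids, had -0.16.

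The next lists were families by name, the glutathione peroxidases, the glutathione transferases, and the glutaredoxins with glyoxalases. Over all genes 21.4% were called. Of 7 peroxidases other than GPX4, GPX8, an enzyme of the endoplasmic reticulum, rose by 0.43 and the other 6 did not pass, and GPX8 was lost without YW3-56 replicate 3 (limma adjusted p = 0.0727). Of 18 measured transferases, GSTM1 rose by 0.30, GSTA4 and GSTCD fell by 0.32 and 0.30 on the log2 scale, and 15 did not pass. All 3 were lost without one or another array, with adjusted p up to 0.115 over the alternatives. GSTM1 closely resembles other GSTM genes, and probes shared between them cannot be separated here. Of 7 glutaredoxins and glyoxalases, GLRX, which removes glutathione from proteins, rose by 0.66 ± 0.08 (n = 3 per group, limma adjusted p = 9.75e-04) and the other 6 did not pass. GLRX was called under all 16 alternatives. With replicate number as a block MGST3, a microsomal transferase named after its value was seen, also passed (0.26, limma adjusted p = 0.0321).

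Among 7 genes of glutathione transport, SLC25A40, a mitochondrial glutathione carrier, rose by 0.50 and the other 6 did not pass. That is 14.3% called, beside 21.4% of all genes. With replicate number as a block, 2 exporters of glutathione and its conjugates passed as lower, ABCC4 (-0.38, limma adjusted p = 0.0093, against 0.0679 without the block) and ABCC1 (-0.30, 0.0220 against 0.162). Both were lower in YW3-56 in all 3 pairs formed by replicate number, a pairing the labels do not state. All 7 genes of the list were highest among vehicle arrays in DMSO replicate 1, beside 35.3% of all genes. Of the same list, ABCC1 to ABCC5 and, narrowly, SLC25A39 were also highest among treated arrays in YW3-56 replicate 1. SLC25A40 was lowest there, and the share of all genes was not counted for that array. Of 7 measured genes that supply NADPH, on which GSR depends, 3 rose and 4 did not pass, so 42.9% were called. IDH1, cytosolic isocitrate dehydrogenase, had 11.41, 11.48 and 11.55 in YW3-56, against 10.44, 10.62 and 10.59 in DMSO, a change of 0.93 ± 0.08 (n = 3 per group, limma adjusted p = 2.90e-04). ME1, malic enzyme, changed by 0.72 ± 0.09, and PGD, of the pentose phosphate pathway, by 0.32, a call lost without DMSO replicate 2 (0.0644) or YW3-56 replicate 3 (0.0645). TALDO1, transaldolase, named after its value was seen, passed with the block (0.22, limma adjusted p = 0.0466). Of 6 genes that insert selenocysteine, which GPX4 contains, SEPSECS rose by 0.47 and EEFSEC fell by 0.39 on the log2 scale. These calls made up 33.3% of the list. EEFSEC was lost without DMSO replicate 2 (0.0682) and without YW3-56 replicate 1 (0.0610) or 3 (0.0783). SEPHS1, a homologue of selenophosphate synthetase, had -0.25 at an adjusted p of 0.0882 and of 0.0352 with the block.

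**Figure D4:**
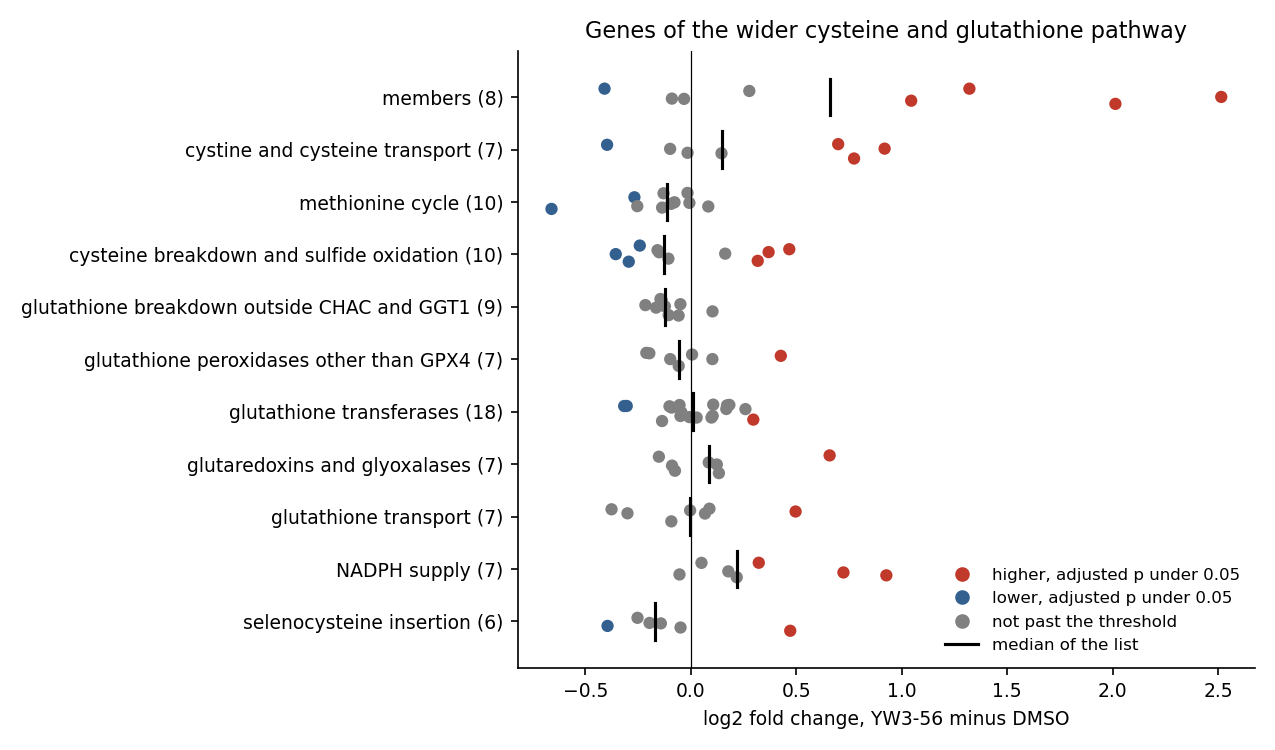
Log2 fold changes, YW3-56 minus DMSO, of the 8 measured members and of the 10 wider lists, with the number of measured genes in brackets. Each point is a gene, red or blue where limma called it higher or lower, and black bars are list medians. CHAC1, CTH, GCLC and GCLM lie above 1, and every gene of the wider lists lies below 0.93.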

How the data were processed

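Per the submitters' processing notes, the authors made the deposited log2 expression values with RMA and the affy package, with versions and genome build not given in the sources used here. The deposited table held 33297 probe sets on 6 arrays, 1 column per array. Precision is limited by the number of arrays, 3 per group. Names came from GEO's platform annotation, which can be old. A single symbol was listed for 19460 probe sets, several for 1754 and none for 12083. The brightest single-symbol probe set by mean over the 6 arrays was used, giving 18417 genes.

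The contrast YW3-56 minus DMSO was fitted with limma 3.58.1 in R 4.3.3 (lmFit and eBayes, group as the only term, two-sided, Benjamini-Hochberg over all genes, threshold 0.05, no filter on dim genes). The fit was tested on simulated data. A planned comparison of CTH with CBS was not made. The members and lists were chosen with earlier results of these data known. Named genes were all measured members, ASNS, up to 3 genes per list with the largest change, called genes first, and the 5 genes most correlated with CHAC1. Deviations from group means correlated at 0.539, 0.370 and 0.102 between arrays of the same replicate number. YW3-56 replicate 2 correlated better with DMSO replicate 3 (0.416), and the labels state no pairing. Replicate number was left out of the main fit and entered as a block only as an alternative. Promoter windows came from RefSeq (GRCh38.p14). Alternatives were another scaling, filters on dim genes, the choice of probe set, other priors, array weights, replicate number as a block, and leaving out each array.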

Additional observations from a re-analysis of the deposited data

How the results depend on the processing

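CTH, GCLC and GCLM kept their direction and stayed past the threshold under all 16 alternatives, with changes of 1.94 to 2.09, 1.29 to 1.38 and 1.01 to 1.08, and GSS stayed negative and not called. CHAC1 was called under all but the per-gene model without shared variance (2.52, adjusted p = 0.0643). CHAC2 was lost after centring of each array (-0.38) and in the per-gene model (-0.41), where 0 members were called lower, and ran from -0.50 to -0.31 as each array was left out, with 0 to 1 members called lower. GSR was called after a second quantile normalization (0.30), with 2 filters on dim genes and a trended and robust prior (0.28 each), with array weights (0.32) and with the replicate block (0.28), and ran from 0.24 to 0.35 as each array was left out. GPX4 turned to 0.0016 after a second quantile normalization and ran from -0.0775 to 0.0115 as each array was left out. The replicate block changed no other member's call. With arrays paired by replicate number, CHAC1 minus CHAC2 still differed by 2.92 and GCLC minus GCLM by 0.28. Each had an exact sign-flip p of 0.25, the smallest that 3 pairs allow. Wider pathway counts ran from 9 to 15 rises and from 1 to 8 falls as each array was left out, with 5 falls after centring. Over all genes, 1812 rose and 2121 fell. As each array was left out there were 1158 to 2084 rises and 1206 to 2605 falls, and with array weights 3432 falls. Rises outnumbered falls after a second quantile normalization (2114 and 2025) and after centring of each array (1691 and 1432). The median log2 fold change over all genes was -0.0514 in the main fit, and -0.0242 and -0.0215 after these 2 scalings. With 3 arrays per group, changes as small as those of GSS and GPX4 cannot be told from 0. The values carry no measure of signal over background.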
